A study of Danio rerio with 19 samples.

Results

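Bihormonal cells, the islet cells that carried an insulin and a somatostatin reporter after β-cell ablation, were compared with GFPlow cells, the dimmer of 2 GFP-positive populations sorted from control islets. The deposited count tables hold 31901 genes. The 14693 that averaged 10 or more normalized counts over the 19 libraries of the study were tested. They were compared in 6 bihormonal and 3 GFPlow libraries, which are 9 of the 19. All fish were adult zebrafish of 6 to 10 months, males and females, with the transgenes Tg(sst1.1:eGFP) and Tg(ins:NTR*-P2A-mCherry). GFP was thus driven by the promoter of the somatostatin gene *sst1.1*, and mCherry, together with a nitroreductase, by the insulin promoter. Bihormonal cells (GFP+ mCherry+) came from fish kept for 18 hr in 2.5 µM nifurpirinol (NFP), a prodrug that nitroreductase turns toxic inside β-cells, and were sorted at 20 days post treatment (dpt). GFPlow cells (GFP+, low fluorescence) came from control fish kept for 18 hr in 0.16% DMSO, whose β-cells were intact. The labels give 20 dpt for both groups, while the methods of the study give no day for the controls. A library is a pool of cells from the main islets of 2 to 4 fish, so the spread between libraries is one between pools, and doublets were gated out in the sort. Levels in the remaining 3 GFPhigh libraries (the brighter GFP+ cells) and 7 β-cell libraries (mCherry+), also from DMSO controls with the same transgenes, are given where they help to place a difference.

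The zebrafish islet holds β-cells, which make insulin, α-cells, which make glucagon, and δ-cells, which make somatostatin, a peptide that restrains the release of other hormones. Zebrafish have several somatostatin genes, and the study treats GFPhigh cells as δ-cells of the *sst1.1* type and GFPlow cells as δ-cells of the *sst2* type. The comparison therefore sets cells that carry both hormones after regeneration beside a resident somatostatin cell of the same islet. It joins the cell type and the NFP ablation, which cannot be told apart here. The 19 libraries fall into 6 library sets (runs of neighbouring library numbers), and bihormonal and GFPlow libraries share 0 of these 6, so the set is compared only through β-cell and GFPhigh libraries. Bihormonal replicates 1 to 3 share a set, bihormonal replicates 4 and 5 share another, and bihormonal replicate 6 is in a further set. GFPlow replicates 2 and 3 share a set, and GFPlow replicate 1 is in another.

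Gene counts summed to 6028949 to 18077658 per bihormonal library and to 5599246 to 9017892 per GFPlow library. A count above 0 was found for 17675 to 20400 genes per bihormonal library and for 19272 to 19821 per GFPlow library. Values below are normalized counts, the counts of a library divided by its relative effective size (total count times the composition factor of edgeR), and they are not divided by gene length, so they compare libraries and not genes. A gene was called different at an adjusted p under 0.05 (edgeR's quasi-likelihood test, Benjamini-Hochberg adjustment over all genes tested) and a fold above 2. Fold changes are log2 values, bihormonal minus GFPlow, given with their standard error. In a principal component analysis of the 9 libraries the first component, 57.4% of the variance, separated the groups, with scores of -75.1 to -23.3 for bihormonal and 109 to 124 for GFPlow libraries. Bihormonal replicate 6 was nearest to the GFPlow libraries. The second component, 16.3%, set bihormonal replicates 4 and 5, which share a library set, apart from the other 4. Where bihormonal libraries split by set, here and below, the set and other differences between these pools cannot be told apart. Because these are pools of sorted cells, fewer cells of a type and less RNA per cell cannot be told apart in any value below.

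Of 14693 genes tested, 2431 (16.5%) were called. Bihormonal cells were higher for 1157 genes (7.87%) and lower for 1274 (8.67%). Counts of called members of the gene lists below are to be read beside these shares. The mean of 10 was taken over all 19 libraries, of which only 3 are GFPlow. A gene found only in GFPlow cells thus needed a higher level to be tested than one found only in bihormonal cells. With no filter 1213 genes were called higher and 1778 lower. The 6 bihormonal and 3 GFPlow values did not overlap for 3497 genes (23.8%). Scaling by library totals alone gave 476 higher and 3803 lower genes, because the median log2 fold change of all genes moved from 0.06 to -0.74 (a median shift per gene of -0.78). Higher genes were then 11.1% of those called, against 47.6% with composition scaling. Of the genes described below, *pyyb*, *foxo1a*, SCG3, GYS1, *mdm2*, CCNG1, ADCYAP1R1, BAMBI, RPL19, RPL29, NDUFA4, *b2m* and ATP6AP2 lost their calls with totals alone, and INSM1, *kcnj11* and FOS were then called lower. When the library set was a block in the fit, 307 genes were called higher and 369 lower, of which 289 and 351 were also called without it. In this set-blocked fit bihormonal replicates 1 to 3 and GFPlow replicate 1 do not enter the difference between the groups, and the groups are linked only through β-cell and GFPhigh libraries. For comparison, bihormonal cells differed from GFPhigh cells in 405 genes (2.76%), 208 higher and 197 lower. The plot of fold changes by level shows the genes named below among all those tested.

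**Figure D1:**
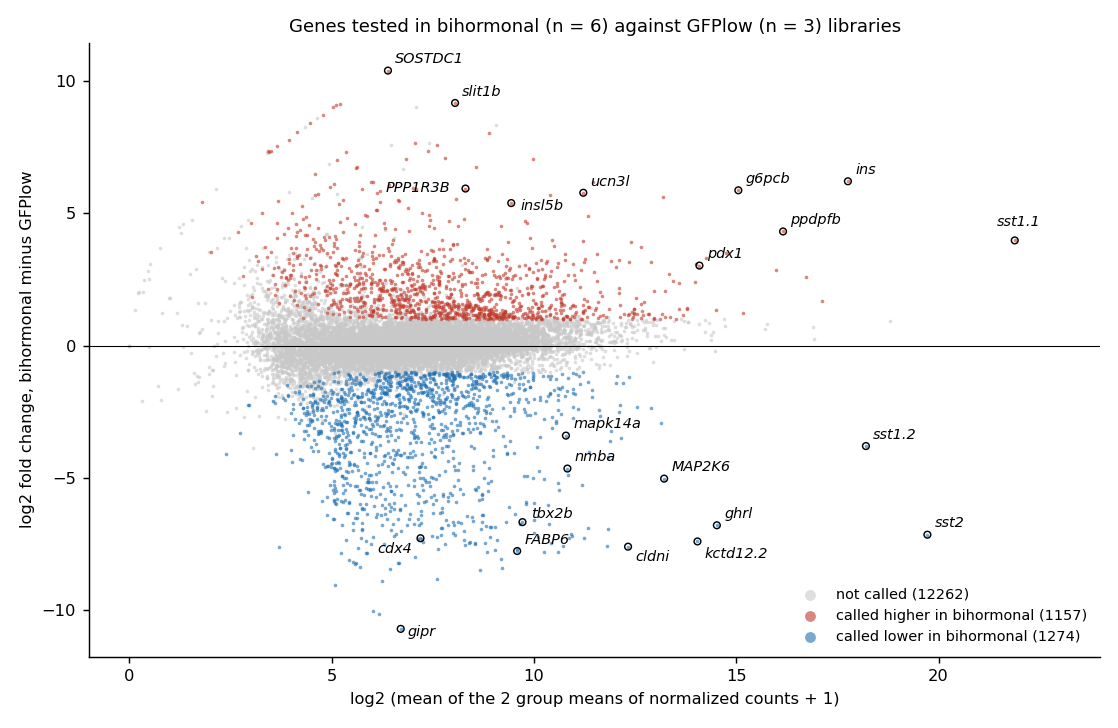
Log2 fold change of each of the 14693 genes tested (vertical axis, bihormonal minus GFPlow) against the log2 of the mean of the 2 group means of normalized counts plus 1 (horizontal axis). Red dots are the 1157 genes called higher in bihormonal cells, blue dots the 1274 called lower and grey dots the other 12262. *sst1.1* and *ins* are the called higher genes furthest to the right among those marked, and *sst2* and *sst1.2* the called lower ones.

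Bihormonal cells carried far more *ins* and *sst1.1* RNA, and GFPlow cells more *sst2*, *sst1.2* and *ghrl* RNA. Of 13 hormone genes tested, 6 were called higher (46.2%) and 4 lower (30.8%), with a median log2 fold change of 1.98. The higher ones include *ins* and *sst1.1*, whose promoters drove the reporters of the sort. The higher share is therefore a description and is not set beside the 7.87% of all genes. The lower share of all genes was 8.67%. Insulin, *ins*, was 197178 to 867014 (median 379676) in bihormonal libraries and 2886, 3958 and 11016 in GFPlow libraries. Every bihormonal library lay above every GFPlow library (log2 fold change 6.201 ± 0.74, adjusted p = 2.6e-06). *sst1.1*, the gene whose promoter drives the GFP, lay between 2887145 and 13550125 (median 6332821) in bihormonal libraries and at 277433, 545689 and 568748 in GFPlow libraries. It was higher in bihormonal cells (log2 fold change 3.97 ± 0.89, adjusted p = 0.0024), and GFPhigh cells, at 5098018, 7391629.5 and 4474034, covered part of the bihormonal range. *sst1.1* took 45.3% ± 9.24 (SD, n = 6) of all counts in bihormonal libraries and 5.58% ± 1.95 (SD, n = 3) in GFPlow libraries. Since the GFP and mCherry reporters chose the cells, these 2 genes check the labels and are not findings.

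The other somatostatin genes ran the opposite way. *sst2* had 513.2 to 38833 normalized counts (median 7272) in bihormonal and 1627456, 2101880.0 and 1428799 in GFPlow libraries, a log2 fold change of -7.14 (adjusted p = 9.8e-06). *sst1.2* ranged from 11363 to 134574 (median 24296) in bihormonal libraries and was 657144, 582759.6 and 450568 in GFPlow libraries (log2 fold change -3.79 ± 0.73, adjusted p = 0.0006), with bihormonal replicate 4 above the other 5 libraries of its group. Of the counts on the 3 somatostatin genes, *sst1.1* made 99.2% ± 0.529 (SD, n = 6) in bihormonal and 17.0% ± 6.202 (SD, n = 3) in GFPlow cells. In GFPlow libraries most counts on these genes thus lay on *sst2*. Counts of *sst1.1* were below those of *sst1.2* in GFPlow replicates 1 and 2 and above them in GFPlow replicate 3. These are shares of counts that are not divided by gene length, so they do not rank the RNA levels of the genes. *hhex*, a transcription factor of δ-cells, was not called (-0.25, adjusted p = 0.61), with means of 539.6 and 642, while its mean in β-cells was 1.86.

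A second tier of hormone genes followed. Bihormonal cells were higher for *ucn3l*, the zebrafish urocortin 3 gene, whose mammalian counterpart is a peptide of mature β-cells. It was 2665 to 8406 (median 4071) in bihormonal libraries and 35.0, 95.0 and 128 in GFPlow libraries (log2 fold change 5.77 ± 0.78, adjusted p = 1.2e-05). Its GFPhigh mean was 2899 and its β-cell mean 76.4. *insl5b*, a relaxin-family peptide gene, lay between 156 and 3209 (median 1114) in bihormonal libraries and at 3.62, 63.0 and 28.5 in GFPlow libraries (log2 fold change 5.38 ± 1.096, adjusted p = 0.00099). *pyyb*, a peptide YY gene, had 5297 to 8618 normalized counts (median 7076) in bihormonal and 1447, 1759 and 2155 in GFPlow libraries (log2 fold change 1.98 ± 0.54, adjusted p = 0.011), and its call was lost when GFPlow replicate 1 or GFPlow replicate 2 was left out, at 1.84 and 1.96, and with totals alone, at 1.18 (adjusted p = 0.064). Lower in bihormonal cells were ghrelin, *ghrl*, the hormone of ε-cells, and *nmba*, a neuromedin B gene. *ghrl* ranged from 39.5 to 799.6 (median 405) in bihormonal libraries and was 61714, 34517 and 43557 in GFPlow libraries (log2 fold change -6.78 ± 1.03, adjusted p = 4.4e-05). *nmba* was 38.1 to 364 (median 112) in bihormonal libraries and 4789.7, 1954 and 3738 in GFPlow libraries (log2 fold change -4.64 ± 0.68, adjusted p = 2.8e-05). The glucagon genes were not called. *gcga* lay between 4039 and 64986 (median 16523) in bihormonal libraries and at 20382, 13329 and 25838 in GFPlow libraries, and bihormonal replicate 6 held its highest value. *gcgb* was at 1198 to 26472 (median 5145) in bihormonal and 9467, 5400.4 and 10722 in GFPlow libraries, so the groups overlapped for both. Blocking on library set removed the calls of *sst1.1* (1.95), *ghrl* (-3.89), *insl5b* (3.35), *nmba* (-3.65) and *pyyb* (0.36), while *ins*, *ucn3l*, *sst2* and *sst1.2* kept theirs.

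**Figure D2:**
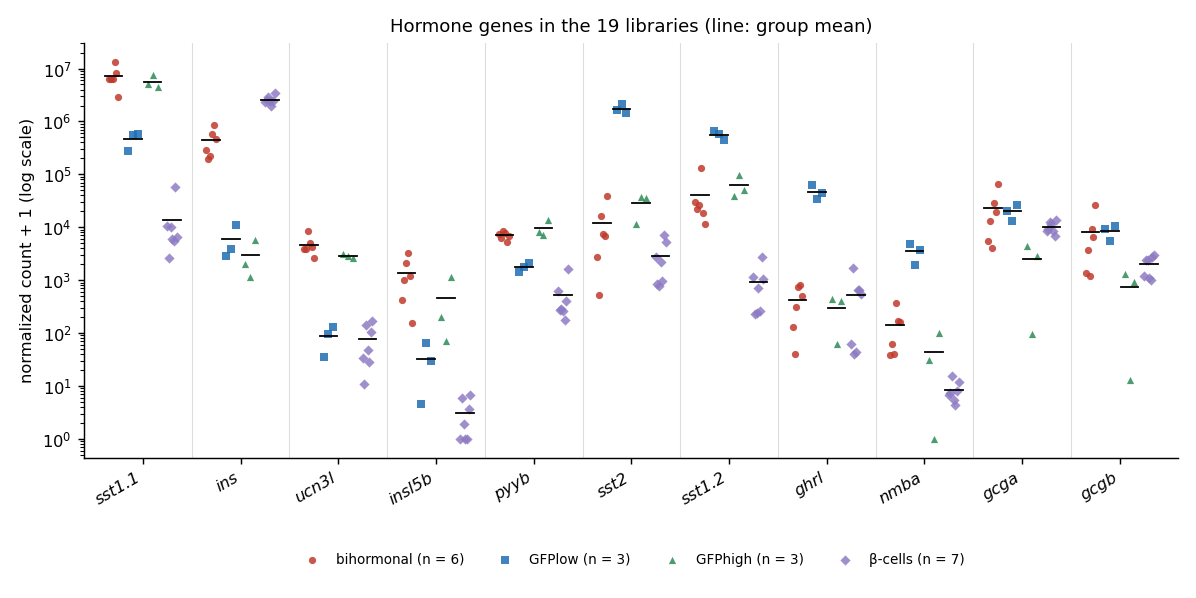
Normalized counts plus 1 (log axis) of 11 hormone genes in the 19 libraries, a point per library, with a line at each group mean. Bihormonal libraries lie above all GFPlow libraries for the first 5 genes and below them for *sst2*, *sst1.2*, *ghrl* and *nmba*, and the groups overlap for *gcga* and *gcgb*.

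Together the hormone genes took 48.8% ± 8.44 (SD, n = 6) of the counts in bihormonal libraries and 34.0% ± 3.16 (SD, n = 3) in GFPlow libraries. The share ran from 35.8% to 61.9% and from 31.9% to 37.6%, so the ranges overlapped. In bihormonal libraries it was almost all *sst1.1* and *ins*, the genes of the sort, so it is given as a description.

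Transcription factors of endocrine cells split in both directions. Of 50 tested, 8 (16%) were called higher and 13 (26%) lower, with a median of -0.02. *pdx1*, a homeobox factor of β-cells and of the early pancreas, had 20310.0 to 54958 normalized counts (median 26417) in bihormonal and 2087, 3316 and 6091 in GFPlow libraries (log2 fold change 3.02 ± 0.39, adjusted p = 5.7e-06). That is an 8.11-fold ratio of means, and the bihormonal mean of 31053 compares with 21026 in β-cells and 18533 in GFPhigh cells. The TALE homeobox genes *meis1a* and *meis1b*, whose products act as partners of other homeobox proteins, rose too. *meis1a* ranged from 5271 to 9472 (median 6642) in bihormonal libraries and was 558, 735 and 991 in GFPlow libraries (log2 fold change 3.19 ± 0.28, adjusted p = 5.8e-08). *meis1b* was 1664 to 2792 (median 2169) in bihormonal libraries and 171, 193 and 418 in GFPlow libraries (log2 fold change 3.10 ± 0.39, adjusted p = 4.2e-06). *meis2a* was lower in level and varied more, 6.68 to 496 (median 106) against 4.83, 0 and 2.85 (log2 fold change 6.05 ± 1.51, adjusted p = 0.0059). HNF4A, a nuclear receptor of gut and liver epithelium that β-cells also use, lay between 135 and 319.7 (median 219) in bihormonal libraries and at 43.5, 34.9 and 49.9 in GFPlow libraries (log2 fold change 2.44 ± 0.34, adjusted p = 1.4e-05). *foxo1a*, a forkhead factor held in check by insulin signalling, and *sox11b*, a SOX factor of immature cells, were higher by 1.32 ± 0.19 (adjusted p = 2.9e-05) and 2.37 ± 0.59 (adjusted p = 0.0057). With totals alone *foxo1a* was at 0.55 (adjusted p = 0.097) and not called, and with voom *meis2a* lost its call (5.21, adjusted p = 0.21).

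The factors that were lower in bihormonal cells included genes that were nearly silent there. *cdx4*, a caudal homeobox factor of the posterior gut, had 0 to 3.84 normalized counts (median 2.32) in bihormonal and 434, 263 and 173 in GFPlow libraries (log2 fold change -7.27 ± 0.68, adjusted p = 1.1e-07). *cdx1b*, of the same family, ranged from 1.11 to 50.1 (median 8.49) in bihormonal libraries and was 2519, 1877 and 1718 in GFPlow libraries (log2 fold change -7.07 ± 0.60, adjusted p = 4.7e-08). The T-box repressor *tbx2b* was 5.77 to 42.6 (median 10.2) in bihormonal libraries and 1836, 1532 and 1633 in GFPlow libraries (log2 fold change -6.67 ± 0.56, adjusted p = 3.9e-08). *cdx4* was also lower in bihormonal than in GFPhigh cells (log2 fold change -2.72 ± 0.75, adjusted p = 0.049), and in the 3 GFPhigh libraries it was 7.26, 18.9 and 10.53. *tshz3a*, a teashirt zinc finger gene, was at 0 in 4 of 6 bihormonal libraries, at 0.917 in replicate 3 and at 9.18 in replicate 6, against 1138, 677 and 596 in GFPlow libraries (log2 fold change -8.46 ± 0.73, adjusted p = 5e-08). *pbx1a*, a TALE partner of the MEIS proteins, lay between 4.64 and 28.4 (median 15.3) in bihormonal libraries and at 389, 575 and 332 in GFPlow libraries (log2 fold change -4.75 ± 0.60, adjusted p = 5.5e-06). *pou2f2a* was lower, at -3.93 ± 0.41 (adjusted p = 4.7e-07). *insm1b*, a gene for insulinoma-associated 1, had 15.6 to 119 normalized counts (median 27.2) in bihormonal and 407, 361 and 357 in GFPlow libraries (log2 fold change -3.18 ± 0.40, adjusted p = 5.5e-06), and the other copy, INSM1, chosen after its values were seen, had means of 2099 and 2732 and was not called (adjusted p = 0.41), but with totals alone it was called lower too, at -1.103 (adjusted p = 0.0176). The LIM factor ISL1, shared by all islet endocrine cells, was lower by a smaller margin, 1776 to 3731 (median 2708) against 5836, 6307 and 5283 (log2 fold change -1.14 ± 0.24, adjusted p = 0.0013). PAX6 and *neurod1*, pan-endocrine factors, were not called (0.29, adjusted p = 0.45, and 0.36, adjusted p = 0.3), nor was the β-cell factor MNX1, whose mean was 11.4 in bihormonal, 15.4 in GFPlow and 2011 in β-cells. SOX9, a symbol shared with another gene, spread from 16.7 to 353 (median 142) in bihormonal libraries against 47.1, 44.6 and 39.9 and was not called (adjusted p = 0.099). This SOX9 gene was called higher with voom, with the replicate block and without bihormonal replicate 4 (2.20, adjusted p = 0.0365). The other gene of that symbol was at most 3.33 in bihormonal libraries and at 0 in GFPlow libraries. The study names *sox9b* as a progenitor marker and reports it as barely expressed in bihormonal cells. The symbols do not tell which of these genes is *sox9b*. The set-blocked fit called SOX9 too and no longer called *meis2a*, *foxo1a*, *sox11b* or ISL1.

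Of 60 genes of the p38 and JNK stress kinase pathways, 8 were called higher (13.3%) and 6 lower (10.0%), beside 7.87% and 8.67% of all genes. The median log2 fold change of this list was -0.08, and its higher members are not described in this paragraph. Among the lower ones were 3 genes of the p38 chain, in which a MAP3K activates a MAP2K and this the p38 kinase. Of these, MAP3K15 is also among the markers that the study gives for *sst2* δ-cells. The 3 genes do not stand for the list, which had more higher than lower members, and p38 activity was not tested. MAP3K15 ranged from 2.32 to 186.2 (median 29.4) in bihormonal libraries and was 8668, 5934 and 6983 in GFPlow libraries (log2 fold change -6.94 ± 0.64, adjusted p = 1e-07). MAP2K6, a direct activator of p38, was 365 to 784 (median 531) in bihormonal libraries and 17339.9, 22737 and 15401 in GFPlow libraries (log2 fold change -5.02 ± 0.25, adjusted p = 5.6e-11). *mapk14a*, a gene for p38α itself, lay between 249 and 355 (median 306) in bihormonal libraries and at 3590.4, 3605 and 2516 in GFPlow libraries (log2 fold change -3.40 ± 0.22, adjusted p = 2e-09). The groups stood far apart for all 3, and each was also called in the set-blocked fit, at -6.48, -5.17 and -2.76. A second p38α gene, MAPK14, chosen after its values were seen, was not called (0.26, adjusted p = 0.46), with means of 559 and 468. Without bihormonal replicate 4 or without GFPlow replicate 1, 5 instead of 8 members were called higher.

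**Figure D3:**
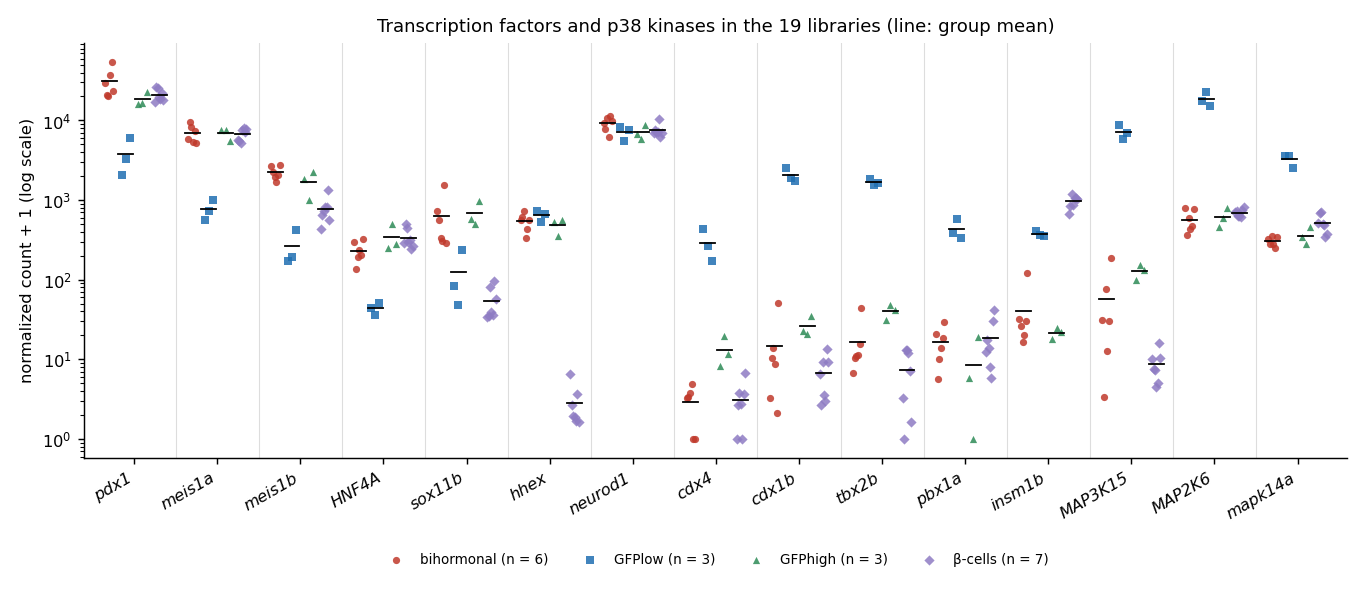
Normalized counts plus 1 (log axis) of 12 transcription factor genes and the p38 chain genes MAP3K15, MAP2K6 and *mapk14a* in the 19 libraries, a point per library and a line at each group mean. GFPlow libraries stand above all others for *cdx4*, *cdx1b*, *tbx2b*, *pbx1a* and the 3 kinase genes, and below all bihormonal libraries for *pdx1*, *meis1a*, *meis1b*, HNF4A and *sox11b*.

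Genes of prohormone processing and secretory granules were called higher more often than lower. Of 31 tested, 11 (35.5%) were called higher and 2 (6.45%) lower, with a median log2 fold change of 0.65, which was -0.12 when scaled by totals alone, where all genes had -0.74. The prohormone convertases, which cut prohormones at basic residues, were among the higher ones. PCSK1 had 17072 to 40931 normalized counts (median 30433) in bihormonal and 2177, 4395 and 3830.3 in GFPlow libraries (log2 fold change 3.08 ± 0.42, adjusted p = 1.2e-05). PCSK2 ranged from 28837 to 79234 (median 46419) in bihormonal libraries and was 2618, 4781 and 6031 in GFPlow libraries (log2 fold change 3.48 ± 0.50, adjusted p = 2.2e-05). PCSK2 was in turn lower in bihormonal than in GFPhigh cells, whose libraries had 121714, 217744 and 89902 (log2 fold change -1.51 ± 0.40, adjusted p = 0.045). Carboxypeptidase E, CPE, which trims the cut ends, was 20162 to 34139 (median 27735) in bihormonal libraries and 4429.8, 5738 and 5386 in GFPlow libraries (log2 fold change 2.39 ± 0.31, adjusted p = 7e-06), and the amidating enzyme PAM lay between 11081 and 23007 (median 14061) in bihormonal libraries and at 3868, 3288 and 4181 in GFPlow libraries (log2 fold change 2.04 ± 0.28, adjusted p = 1.3e-05). SLC30A2, a zinc transporter, was higher by 2.88 ± 0.36 (adjusted p = 4.2e-06) and the granule protein SCG3 by 1.22 ± 0.21 (adjusted p = 0.00021). The 2 lower members were *chgb*, a chromogranin of dense-core granules, 10.9 to 51.1 (median 24.5) against 325, 459.6 and 232 (log2 fold change -3.66 ± 0.46, adjusted p = 4.3e-06), and *rab3db*, a small GTPase of vesicles, 197 to 653 (median 396) against 2617, 1139 and 1718 (log2 fold change -2.07 ± 0.34, adjusted p = 9.1e-05). SCG3 and *rab3db* lost their calls in the set-blocked fit.

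Glucose handling genes moved in both directions, 11 (21.2%) higher and 9 (17.3%) lower of 52 tested, and 12 and 13 with no filter. Higher members included a gene for the entry of glucose. SLC2A2, the glucose transporter of β-cells and liver, had 2144 to 3117 normalized counts (median 2356) in bihormonal and 405, 669 and 749 in GFPlow libraries (log2 fold change 2.05 ± 0.24, adjusted p = 2e-06). The glucose-6-phosphatase genes, which act in the reverse direction, were higher as well. *g6pcb* ranged from 23620.3 to 175404 (median 33782) in bihormonal libraries and was 140.1, 1309.9 and 1999 in GFPlow libraries (log2 fold change 5.86 ± 1.15, adjusted p = 0.00069), highest in bihormonal replicates 4 and 5. *g6pca.2* was far less abundant, 81.3 to 120.4 (median 87.8) against 6.04, 6.79 and 5.70 (log2 fold change 3.89 ± 0.41, adjusted p = 5.2e-07). *slc37a4a*, the transporter that feeds glucose-6-phosphatase, was higher by 1.96 ± 0.29 (adjusted p = 3.4e-05). PPP1R3B, which targets a phosphatase to glycogen, was 323 to 992 (median 615) in bihormonal libraries and 2.42, 1.94 and 28.5 in GFPlow libraries (log2 fold change 5.93 ± 0.73, adjusted p = 3.5e-06), and it also exceeded GFPhigh cells (log2 fold change 4.34 ± 0.64, adjusted p = 0.0029), whose libraries had 38.7, 36.5 and 16.8. *ppp1r3ca*, of the same family, was higher by 2.61 ± 0.32 (adjusted p = 3.5e-06) and glycogen synthase GYS1 by 1.29 ± 0.19 (adjusted p = 2.9e-05).

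Lower members of this list included genes for glycogen phosphorylases and a monocarboxylate transporter. The glycogen phosphorylase PYGL was at 0 in 4 of 6 bihormonal libraries and at most 9.99, against 176, 143 and 145 (log2 fold change -6.14 ± 0.88, adjusted p = 2.2e-05). *pygma*, the muscle-type phosphorylase, lay between 0 and 27.7 (median 8.53) in bihormonal libraries and at 68.8, 177 and 347 in GFPlow libraries (log2 fold change -4.14 ± 0.67, adjusted p = 9.4e-05). *slc16a12b*, a monocarboxylate transporter gene, had 18.5 to 178 normalized counts (median 45.7) in bihormonal and 1115, 1345 and 1216 in GFPlow libraries (log2 fold change -4.08 ± 0.77, adjusted p = 0.00045). The ATP-sensitive potassium channel, which couples glucose use to secretion, did not differ by the test in either subunit, ABCC8 at 0.17 (adjusted p = 0.74) and *kcnj11* at -0.40 (adjusted p = 0.3), nor did hexokinase 2, HK2, at 1.87 (adjusted p = 0.056). With totals alone *kcnj11* was called lower (-1.13, adjusted p = 0.0106), and HK2 was called higher with DESeq2 (1.84, adjusted p = 0.0297) and without bihormonal replicate 1 or 5 or replicates 1 to 3. The count of lower members fell from 9 to 4 without GFPlow replicate 1 and to 5 without GFPlow replicate 2 or 3. Blocking on library set removed the calls of *g6pcb*, PPP1R3B, GYS1, PYGL and *slc16a12b*.

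Genes of growth arrest and the DNA damage response held several that were higher in bihormonal cells than in both GFP populations of the controls. Of 39 tested, 7 (17.9%) were called higher and 5 (12.8%) lower than in GFPlow cells, beside 7.87% and 8.67% of all genes. Against GFPhigh cells 5 were called higher and 0 lower, beside 208 and 197 of all 14693 genes. *rps27l* ranged from 2391 to 3313 (median 2555) in bihormonal libraries and was 313, 369 and 345 in GFPlow libraries (log2 fold change 2.97 ± 0.33, adjusted p = 9.4e-07). GFPhigh libraries had 616, 502 and 680.0 of it, again below every bihormonal library (log2 fold change 2.16 ± 0.31, adjusted p = 0.0024). Cyclin G1, CCNG1, a damage-induced cyclin, was 6158 to 10613 (median 8275) in bihormonal libraries and 3505, 4243 and 3271 in GFPlow libraries (log2 fold change 1.17 ± 0.29, adjusted p = 0.006), and it was higher than in GFPhigh cells too (log2 fold change 1.55 ± 0.30, adjusted p = 0.017). GADD45A, a stress sensor that slows the cycle, lay between 834 and 1243 (median 995) in bihormonal libraries and at 205, 182 and 252 in GFPlow libraries (log2 fold change 2.23 ± 0.32, adjusted p = 2.2e-05). Its difference from GFPhigh cells was smaller (log2 fold change 1.095 ± 0.30, adjusted p = 0.048). *sesn2*, a sestrin induced by stress, had 237 to 636 normalized counts (median 341) in bihormonal and 124, 61.1 and 123 in GFPlow libraries (log2 fold change 1.94 ± 0.42, adjusted p = 0.0017), and it also exceeded GFPhigh cells (log2 fold change 1.65 ± 0.41, adjusted p = 0.041). The ubiquitin ligase gene *mdm2* ranged from 463 to 973 (median 626) in bihormonal libraries and was 333, 269.5 and 252 in GFPlow libraries (log2 fold change 1.2002 ± 0.28, adjusted p = 0.0034), and against GFPhigh cells it was not called (log2 fold change 0.996 ± 0.28, adjusted p = 0.0502). *cdkn1a*, which encodes the cyclin-dependent kinase inhibitor p21, was low in count but did not overlap, 29.98 to 74.3 (median 53.0) against 2.42, 2.91 and 4.28 (log2 fold change 3.98 ± 0.90, adjusted p = 0.0024). Lower than in GFPlow cells were SESN1, 56.4 to 237 (median 105) against 914, 1003 and 908 (log2 fold change -2.84 ± 0.37, adjusted p = 7e-06), the caspase activator APAF1, at -1.84 ± 0.22 (adjusted p = 2.5e-06), and the kinase gene PLK2, at -1.95 ± 0.42 (adjusted p = 0.0015). Of these genes, *sesn2* lost its call in the set-blocked fit, and CCNG1 (0.37, adjusted p = 0.32) and *mdm2* (0.43, adjusted p = 0.28) lost theirs with totals alone.

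Cell cycle genes were called higher for 11 (14.3%) and lower for 3 (3.90%) of 77 members, with a median of 0.42 that became -0.34 when scaled by totals alone. *kif20ba*, a mitotic kinesin gene, was 219 to 511 (median 274) in bihormonal libraries and 41.1, 30.1 and 75.6 in GFPlow libraries (log2 fold change 2.66 ± 0.40, adjusted p = 4e-05). PLK4, which starts the doubling of centrioles, lay between 31.7 and 442 (median 80.7) in bihormonal libraries and at 7.25, 20.4 and 7.13 in GFPlow libraries (log2 fold change 3.68 ± 0.82, adjusted p = 0.0023), with bihormonal replicates 4 and 5 highest. The higher count fell from 11 to 6 without GFPlow replicate 1 and without GFPlow replicate 2, and was 1 in the set-blocked fit, which called neither of these 2 genes. Against GFPhigh cells 7 of the 77 members were called higher and 0 lower, beside 208 and 197 of all 14693 genes.

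**Figure D4:**
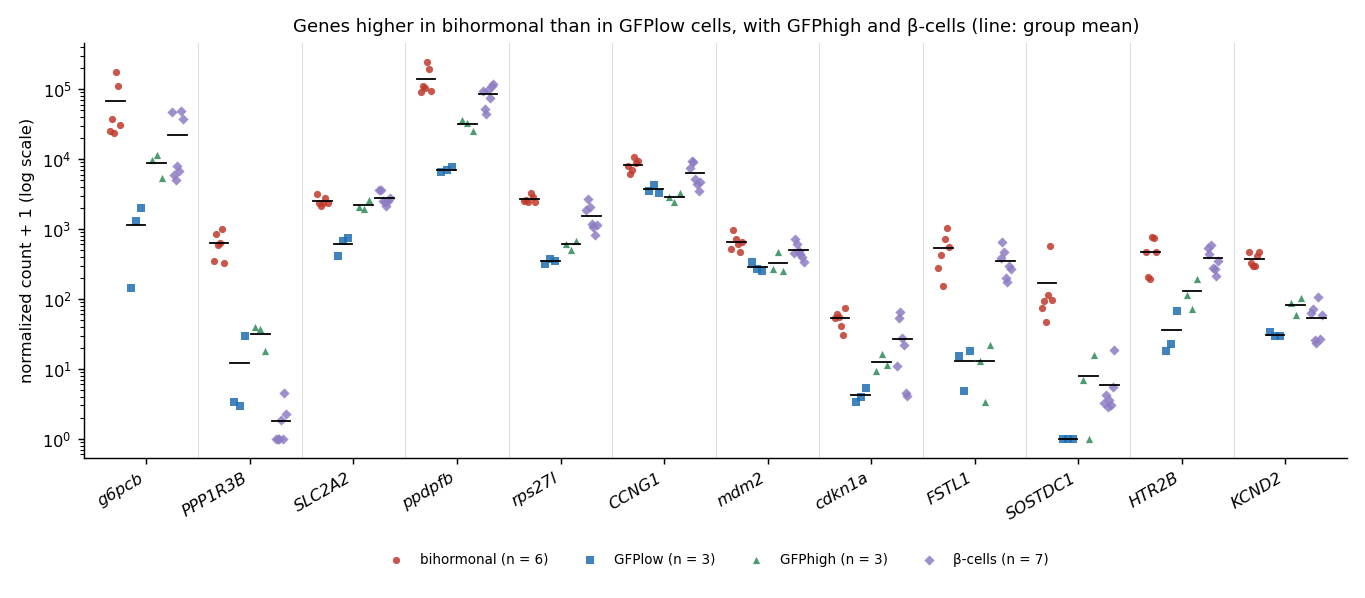
Normalized counts plus 1 (log axis) of 12 genes called higher in bihormonal than in GFPlow cells, in the 19 libraries, a point per library and a line at each group mean. For *g6pcb*, PPP1R3B, *ppdpfb*, *rps27l*, CCNG1, *cdkn1a*, FSTL1, SOSTDC1 and KCND2 all 6 bihormonal libraries also lie above the 3 GFPhigh libraries, while SLC2A2 does not separate from GFPhigh.

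Receptors for peptide hormones were called in both directions, with 11 higher and 11 lower of 40 tested (27.5% each). This even split depended on the filter: with no filter, which tests more members, 11 were called higher and 19 lower. The incretin receptor gene *gipr* had 0 counts in all 6 bihormonal libraries and 36.2, 304 and 281 normalized counts in GFPlow libraries, at least 364-fold lower in bihormonal cells (floor of 3 counts over the group). *uts2r1*, a urotensin receptor gene, was likewise at 0 in all 6 and at 112, 145 and 129.8 in GFPlow libraries, at least 227-fold lower. Such bounds, here and below, set the mean of the higher group against the floor. They allow for counting error only and not for the spread between libraries, which was wide for *gipr*. *rxfp3.3b*, a relaxin-family receptor gene, had 3 counts over the bihormonal libraries and 504 over the GFPlow libraries, a ratio of 345 per effective library size (95% counting interval 118 to 1681, which covers counting error only). OPRD1, the δ-opioid receptor, had 1.15 to 47.6 normalized counts (median 18.2) in bihormonal and 2226, 2117 and 1726 in GFPlow libraries (log2 fold change -6.60 ± 0.57, adjusted p = 4.7e-08). In the other direction, *avpr2aa*, a vasopressin receptor gene, ranged from 625 to 2094 (median 1440.2) in bihormonal libraries and was 117, 143 and 264 in GFPlow libraries (log2 fold change 3.01 ± 0.60, adjusted p = 0.00079). The melanocortin receptor MC4R was 234 to 523 (median 367) in bihormonal libraries and 55.6, 80.5 and 103 in GFPlow libraries (log2 fold change 2.24 ± 0.36, adjusted p = 8.8e-05), and ADCYAP1R1, the receptor for the peptide PACAP, lay between 673 and 2122 (median 1324) in bihormonal libraries and at 252, 322 and 489 in GFPlow libraries (log2 fold change 1.91 ± 0.41, adjusted p = 0.0016). The set-blocked fit did not call *gipr*, *uts2r1*, *rxfp3.3b*, MC4R or ADCYAP1R1. Without bihormonal replicates 1 to 3 together, 7 instead of 11 members were called higher.

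Neurotransmitter receptors were more often lower, 20 of 56 against 12 higher, with a median of -0.38, but 5 were called in each direction in the set-blocked fit. ADRB1, the β1-adrenergic receptor, had 1 count over the bihormonal libraries and 382 over the GFPlow libraries, a ratio of 786 (95% counting interval 140 to 31107). CHRNB4, a nicotinic receptor subunit, had 2 and 449 counts, a ratio of 462 (127 to 3824). The glycine receptor subunit GLRA1 had 0 to 11.7 normalized counts (median 1.16) in bihormonal and 473, 377 and 401 in GFPlow libraries (log2 fold change -6.90 ± 0.80, adjusted p = 1.7e-06), and the metabotropic glutamate receptor GRM3 was at most 4.64 against 187, 138 and 197 (log2 fold change -6.09 ± 0.71, adjusted p = 1.9e-06). Among the higher members was HTR2B, a serotonin receptor, which ranged from 195 to 766 (median 468) in bihormonal libraries and was 16.9, 21.3 and 67.0 in GFPlow libraries (log2 fold change 3.78 ± 0.58, adjusted p = 5e-05), and it was higher than in GFPhigh cells too (log2 fold change 1.90 ± 0.51, adjusted p = 0.046). The α2-adrenergic receptor gene *adra2da* was 398 to 940.4 (median 702) in bihormonal libraries and 39.9, 64.0 and 154 in GFPlow libraries (log2 fold change 2.96 ± 0.48, adjusted p = 8.4e-05). *gabra3*, a GABA receptor subunit gene, and *grid1b*, of the δ glutamate receptors, were higher by 2.94 ± 0.44 (adjusted p = 3.4e-05) and 2.51 ± 0.37 (adjusted p = 2.6e-05). CHRNB4, GLRA1 and GRM3 lost their calls in the set-blocked fit. In cyclic AMP signalling, downstream of many of these receptors, 10 members were called higher (15.2%) and 6 lower (9.09%) of 66, beside 7.87% and 8.67% of all genes. GPR158, an orphan receptor, lay between 1136 and 2877 (median 1769) in bihormonal libraries and at 106, 134 and 194 in GFPlow libraries (log2 fold change 3.67 ± 0.38, adjusted p = 4.4e-07), and the phosphodiesterase PDE3A had 257 to 1045 normalized counts (median 497) in bihormonal and 30.2, 56.2 and 84.1 in GFPlow libraries (log2 fold change 3.29 ± 0.51, adjusted p = 5.2e-05). Another phosphodiesterase gene, *pde2a*, was at most 5.01 in bihormonal libraries and 99.0, 111 and 85.6 in GFPlow libraries (log2 fold change -5.47 ± 0.70, adjusted p = 5.5e-06), and the adenylate cyclase ADCY8 was lower, at -4.51 ± 0.81 (adjusted p = 0.00028), a call lost in the set-blocked fit.

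Ion channels were also called in both directions. Potassium channels, which set the resting potential, were called higher for 9 (20.9%) and lower for 8 (18.6%) of 43. With no filter 10 were called higher and 15 lower. *kcnk3b*, a two-pore leak channel gene, ranged from 50.0 to 167 (median 124) in bihormonal libraries and was 4098, 3102 and 3485 in GFPlow libraries (log2 fold change -4.89 ± 0.26, adjusted p = 8e-11), and it was lower than in GFPhigh cells as well (log2 fold change -1.17 ± 0.25, adjusted p = 0.031). The sodium-activated channel KCNT1 was 4.62 to 81.8 (median 6.53) in bihormonal libraries and 2880.3, 2547 and 2420.0 in GFPlow libraries (log2 fold change -6.74 ± 0.59, adjusted p = 5.8e-08). KCND2, a channel of the A-type current, lay between 293 and 470.0 (median 362) in bihormonal libraries and at 32.6, 28.1 and 28.5 in GFPlow libraries (log2 fold change 3.65 ± 0.47, adjusted p = 5.5e-06), and it exceeded GFPhigh cells by 2.19 ± 0.42 (adjusted p = 0.015). The inward rectifier gene *kcnj2a* was higher by 2.10 ± 0.27 (adjusted p = 6.6e-06). Calcium channels, stores and pumps were called higher for 14 (23.3%) and lower for 8 (13.3%) of 60, and with no filter for 15 and 15. The calcium pump gene *atp2b2* had 249 to 632 normalized counts (median 472) in bihormonal and 22.9, 33.0 and 51.3 in GFPlow libraries (log2 fold change 3.64 ± 0.38, adjusted p = 5.2e-07), also higher than in GFPhigh cells (log2 fold change 1.24 ± 0.32, adjusted p = 0.045). *itpr1b*, an inositol trisphosphate receptor gene of calcium stores, ranged from 584 to 1379 (median 761) in bihormonal libraries and was 158, 178 and 244 in GFPlow libraries (log2 fold change 2.13 ± 0.34, adjusted p = 7.8e-05). The ryanodine receptor RYR3, another store channel, was 4.64 to 35.1 (median 11.5) in bihormonal libraries and 787, 812 and 876 in GFPlow libraries (log2 fold change -5.65 ± 0.55, adjusted p = 1.9e-07), and *trpc5b*, a cation channel gene, was at 0 in 4 of 6 bihormonal libraries and at most 14.2, against 702, 667 and 649 (log2 fold change -7.47 ± 0.72, adjusted p = 1.9e-07). The set-blocked fit did not call *itpr1b* or *trpc5b*.

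Synaptic genes, which endocrine cells use for granule release, were called higher for 21 (18.9%) and lower for 18 (16.2%) of 111. With no filter 22 were called higher and 29 lower. *rims2a*, an active zone scaffold gene, lay between 7635 and 11442 (median 9376) in bihormonal libraries and at 728, 1145 and 1258 in GFPlow libraries (log2 fold change 3.16 ± 0.31, adjusted p = 2e-07). Bihormonal cells were above GFPhigh cells here as well, whose libraries had 3169, 3193 and 5517 (log2 fold change 1.23 ± 0.27, adjusted p = 0.032). The vesicle protein SV2A had 759 to 1259 normalized counts (median 914) in bihormonal and 130.4, 166 and 171 in GFPlow libraries (log2 fold change 2.64 ± 0.24, adjusted p = 9.4e-08), whereas *sv2bb*, of the same family, ranged from 2.56 to 49.3 (median 9.78) in bihormonal libraries and was 946, 626 and 610.3 in GFPlow libraries (log2 fold change -5.41 ± 0.50, adjusted p = 1e-07). *dlg1a*, a scaffold gene, was higher by 2.90 ± 0.36 (adjusted p = 4.5e-06). *stxbp5a*, which encodes the fusion inhibitor tomosyn, was at most 359.9 in bihormonal libraries (median 258) and 1374, 1773 and 1764 in GFPlow libraries (log2 fold change -2.62 ± 0.22, adjusted p = 3.9e-08), and the synapse organiser LRRTM1 was 2.31 to 33.4 (median 12.4) in bihormonal libraries and 818, 795 and 868 in GFPlow libraries (log2 fold change -5.80 ± 0.47, adjusted p = 2.6e-08). CBLN4, a secreted synapse organiser, was uneven among the bihormonal libraries, 9.29 to 984 (median 113), against 1.21, 2.91 and 1.43 (log2 fold change 7.34 ± 1.67, adjusted p = 0.0027), and its call was lost with the replicate number as a block (5.25).

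Growth factor and receptor genes were called higher for 20 (33.9%) and lower for 18 (30.5%) of 59, and with no filter for 21 and 25. The neurotrophins, ligands that keep neurons alive, moved in opposite directions. BDNF lay between 2094 and 3437 (median 2590.3) in bihormonal libraries and at 141, 108 and 352 in GFPlow libraries (log2 fold change 3.74 ± 0.52, adjusted p = 1.5e-05), whereas NTF3 was at 0 in 3 of 6 bihormonal libraries and at most 16.7, against 935, 504 and 797 (log2 fold change -7.48 ± 0.76, adjusted p = 3.5e-07). *ntrk3b*, a gene for the receptor of NTF3, had 620.2 to 968 normalized counts (median 772) in bihormonal and 39.9, 58.2 and 147 in GFPlow libraries (log2 fold change 3.301 ± 0.33, adjusted p = 2.5e-07), so the ligand and its receptor moved in opposite directions. The related heparin-binding factors midkine and pleiotrophin did so too: *mdkb* ranged from 2.32 to 58.4 (median 12.5) in bihormonal libraries and was 4121, 3701 and 3253 in GFPlow libraries (log2 fold change -7.27 ± 0.55, adjusted p = 1.3e-08), and PTN was 10021 to 17673 (median 13362) in bihormonal libraries and 1324, 1325 and 1968 in GFPlow libraries (log2 fold change 3.16 ± 0.29, adjusted p = 1.1e-07). RET, the receptor tyrosine kinase for glial-derived growth factors, was higher by 2.17 ± 0.28 (adjusted p = 7.3e-06) and FGFR2 by 2.66 ± 0.34 (adjusted p = 6.2e-06). Without GFPlow replicate 2 the higher count was 13 instead of 20, and blocking on library set removed the calls of BDNF and NTF3.

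Wnt genes were called lower for 13 and higher for 2 of 37, with a median of -0.46, and for 4 and 1 in the set-blocked fit. The ligand WNT9A lay between 1.83 and 29.2 (median 4.14) in bihormonal libraries and at 504, 601 and 476 in GFPlow libraries (log2 fold change -5.90 ± 0.55, adjusted p = 1.2e-07), and *wnt7bb* had 16.3 to 42.3 normalized counts (median 30.5) in bihormonal and 405, 502 and 361 in GFPlow libraries (log2 fold change -3.78 ± 0.38, adjusted p = 2.7e-07). *sfrp1a*, a secreted Wnt antagonist gene, was at 0 in 3 of 6 bihormonal libraries and at most 3.84, against 85.7, 89.2 and 127 (log2 fold change -5.97 ± 0.88, adjusted p = 3.1e-05). The 2 higher members were secreted regulators. *dkk3b*, of the dickkopf family, ranged from 108761 to 316698 (median 164640.0) in bihormonal libraries and was 15891, 32782 and 44126 in GFPlow libraries (log2 fold change 2.57 ± 0.51, adjusted p = 0.00079), and WIF1, which binds Wnt ligands, was 3410.1 to 7070.3 (median 4357) in bihormonal libraries and 558, 594 and 1049.6 in GFPlow libraries (log2 fold change 2.77 ± 0.31, adjusted p = 9.6e-07). Neither *dkk3b* nor *sfrp1a* was called in the set-blocked fit.

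Among TGF-β and BMP genes, 9 (19.6%) were called higher and 7 (15.2%) lower of 46. FSTL1, a secreted follistatin-like protein, lay between 151 and 1029 (median 489) in bihormonal libraries and at 14.5, 3.88 and 17.1 in GFPlow libraries (log2 fold change 5.51 ± 0.74, adjusted p = 9.4e-06). Its GFPhigh libraries had 12.1, 2.36 and 21.1, so that bihormonal cells were also above GFPhigh cells (log2 fold change 5.43 ± 0.73, adjusted p = 0.0018), while its β-cell mean was 348. SOSTDC1, a secreted antagonist of BMP and Wnt, had 0 counts in the 3 GFPlow libraries and 45.9 to 575 (median 94.4) normalized counts in bihormonal libraries, at least 142-fold higher (floor of 3 counts over the group). SOSTDC1 was higher than in GFPhigh cells as well (log2 fold change 4.53 ± 1.04, adjusted p = 0.035). The ligand gene *bmp7b* had 0 to 16.7 normalized counts (median 2.32) in bihormonal and 626, 355 and 542 in GFPlow libraries (log2 fold change -6.65 ± 0.62, adjusted p = 1.2e-07). Higher members included the inhibitory SMADs, *smad6b* by 2.85 ± 0.42 (adjusted p = 2.7e-05) and SMAD7 by 2.48 ± 0.37 (adjusted p = 4e-05). The pseudoreceptor genes of the BAMBI family split, *bambib* at -2.36 ± 0.30 (adjusted p = 5.3e-06) and BAMBI at 1.52 ± 0.34 (adjusted p = 0.002). Of the Notch genes, 3 were called higher (21.4%) and 2 lower (14.3%) of 14, beside 7.87% and 8.67% of all genes. Among the higher ones was the ligand gene *dlc*, which ranged from 1411 to 3764 (median 2692) in bihormonal libraries and was 173, 88.2 and 241 in GFPlow libraries (log2 fold change 3.97 ± 0.71, adjusted p = 0.00027). SOSTDC1 and SMAD7 lost their calls in the set-blocked fit, and without GFPlow replicate 1 the count of lower TGF-β and BMP members was 4 instead of 7.

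Adhesion molecules were called lower for 44 and higher for 21 of 123, a lower share of 35.8% beside 8.67% of all genes, and for 14 and 9 in the set-blocked fit. *pcdh18b*, a protocadherin gene, had 0 counts in the 6 bihormonal libraries and 158, 117 and 151 normalized counts in GFPlow libraries, at least 250-fold lower. Cadherin 11, CDH11, was 0 to 12.5 (median 3.45) in bihormonal libraries and 835, 940.5 and 858 in GFPlow libraries (log2 fold change -7.44 ± 0.66, adjusted p = 6e-08). *nrcama*, a neural adhesion gene, lay between 39.7 and 109 (median 66.6) in bihormonal libraries and at 2704, 2272 and 2148 in GFPlow libraries (log2 fold change -5.04 ± 0.27, adjusted p = 8e-11), and it was lower than in GFPhigh cells as well (log2 fold change -1.55 ± 0.26, adjusted p = 0.0073). The giant cadherin gene *fat1a* and HEPACAM2 were lower, at -5.50 ± 0.52 (adjusted p = 1.4e-07) and -6.75 ± 0.54 (adjusted p = 2.4e-08). The more abundant *alcamb* had 1110.0 to 2903 normalized counts (median 2093) in bihormonal and 17238, 17276 and 13577 in GFPlow libraries (log2 fold change -2.93 ± 0.29, adjusted p = 2.6e-07). Higher members included 2 integrins of epithelial basement contacts, *itga6b* at 2521 to 4233 (median 3447) against 448, 499 and 706 (log2 fold change 2.67 ± 0.30, adjusted p = 1e-06) and its partner subunit ITGB4 at 97.0 to 276 (median 160.2) against 14.5, 12.6 and 28.5 (log2 fold change 3.17 ± 0.46, adjusted p = 2.6e-05). *cdh10a*, a cadherin gene that the study names as a marker of *sst1.1* δ-cells, overlapped between the groups and was not called (0.82, adjusted p = 0.54). It was split among the bihormonal libraries, at 180%, 346% and 447% of the GFPlow mean in replicates 1 to 3, which share a library set. In replicates 4 to 6 it was at 17.2%, 51.0% and 15.4%. Without replicates 1 to 3 it was called lower (-1.84, adjusted p = 0.0266). *cdh10a* was also lower than in GFPhigh cells (log2 fold change -2.63 ± 0.71, adjusted p = 0.047), whose libraries had 1674, 2323 and 1825.

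Axon guidance genes were called higher for 13 (17.1%) and lower for 18 (23.7%) of 76. *slit1b*, a repellent ligand gene, had 2 counts over the GFPlow libraries and 1914 over the bihormonal libraries, a ratio of 465 (95% counting interval 129 to 3846), and bihormonal replicate 2 held its highest value, 2278. The semaphorin gene *sema3gb* ranged from 29.98 to 632 (median 144) in bihormonal libraries and was 1.21, 0.970 and 2.85 in GFPlow libraries (log2 fold change 7.03 ± 1.17, adjusted p = 0.00012), and *sema3fa* was the reverse, at most 9.18 against 845, 729 and 653 (log2 fold change -7.44 ± 0.58, adjusted p = 1.8e-08). *efnb3a*, an ephrin ligand gene, had 2 counts over the bihormonal libraries and 300 over the GFPlow libraries, a ratio of 308 (95% counting interval 84.6 to 2559). The set-blocked fit did not call *slit1b*, *sema3fa* or *efnb3a*, and voom did not call *slit1b* (7.05, adjusted p = 0.088). Without bihormonal replicates 1 to 3 together, 8 instead of 13 members were called higher.

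Epithelial junction and apical genes were called lower for 16 and higher for 4 of 59, but for 2 in each direction in the set-blocked fit. *cldni*, a claudin gene of tight junctions, was 2.32 to 170.3 (median 20.2) in bihormonal libraries and 11016, 10069 and 9582 in GFPlow libraries (log2 fold change -7.59 ± 0.80, adjusted p = 5.4e-07). *cldn15a*, a claudin gene of gut epithelium, lay between 2.31 and 51.1 (median 25.6) in bihormonal libraries and at 528, 600.2 and 329 in GFPlow libraries (log2 fold change -4.23 ± 0.60, adjusted p = 1.8e-05), and USH1C, a scaffold of microvilli, was lower, at -4.58 ± 0.58 (adjusted p = 5.3e-06). Villin, VIL1, of the same apical structures, was higher, 125 to 479 (median 230.4) against 29.0, 41.7 and 84.1 (log2 fold change 2.31 ± 0.42, adjusted p = 0.00035). Matrix genes were called lower for 13 (31.0%) and higher for 10 (23.8%) of 42. The laminin chain LAMB2 had 31.1 to 93.5 normalized counts (median 48.1) in bihormonal and 1577, 2118 and 1590.0 in GFPlow libraries (log2 fold change -4.93 ± 0.43, adjusted p = 5.6e-08), and tenascin, TNC, was lower than in GFPlow cells (log2 fold change -4.91 ± 0.39, adjusted p = 2.2e-08) and than in GFPhigh cells (log2 fold change -1.60 ± 0.39, adjusted p = 0.038). The matrix protease MMP9 ranged from 248 to 605 (median 406) in bihormonal libraries and was 27.8, 19.4 and 28.5 in GFPlow libraries (log2 fold change 3.98 ± 0.53, adjusted p = 1e-05). Without GFPlow replicate 1 or bihormonal replicates 1 to 3 the count of higher matrix members was 5 and without GFPlow replicate 2 it was 6, instead of 10. Blocking on library set removed the calls of *cldn15a* and VIL1.

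Several of the largest differences belonged to genes outside these lists. FABP6, a bile acid binding protein of the gut, was 0 to 19.2 (median 4.29) in bihormonal libraries and 1698, 1448 and 1445 in GFPlow libraries (log2 fold change -7.76 ± 0.56, adjusted p = 5.8e-09). PTGS2, an inducible prostaglandin synthase, was at 0 in 4 of 6 bihormonal libraries and at most 17.4, against 1248, 1774 and 482 (log2 fold change -8.07 ± 0.79, adjusted p = 2.3e-07), while *ptger4c*, a prostaglandin receptor gene, had 3 counts over the GFPlow libraries and 1424 over the bihormonal libraries, a ratio of 231 (95% counting interval 78.8 to 1121). The chemokine gene *ccl20b* and *mertka*, a receptor tyrosine kinase gene, were lower, at -7.73 ± 0.64 (adjusted p = 3.1e-08) and -8.39 ± 0.70 (adjusted p = 3.5e-08). Among abundant genes, *kctd12.2*, whose family binds GABA receptors, lay between 27.9 and 613 (median 97.6) in bihormonal libraries and at 39918, 32323 and 28344 in GFPlow libraries (log2 fold change -7.40 ± 0.65, adjusted p = 5.8e-08). *ppdpfb*, a pancreatic progenitor differentiation factor gene, had 89719.8 to 246749 normalized counts (median 106594) in bihormonal and 6457, 7059 and 7561 in GFPlow libraries (log2 fold change 4.31 ± 0.45, adjusted p = 4.4e-07), also above GFPhigh cells (log2 fold change 2.16 ± 0.39, adjusted p = 0.011). *rgs5a*, a regulator of G protein signalling, ranged from 73897 to 175428 (median 105199) in bihormonal libraries and was 9053, 18775 and 19728 in GFPlow libraries (log2 fold change 2.83 ± 0.36, adjusted p = 5.1e-06). *hmgcra*, the rate-limiting enzyme gene of cholesterol synthesis, was higher by 3.13 ± 0.70 (adjusted p = 0.0023). The set-blocked fit did not call *ptger4c*, *ccl20b*, *mertka* or *hmgcra*.

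Amino acid transporters were called lower for 10 and higher for 7 of 44. *slc43a2a* was 355 to 1111 (median 743) in bihormonal libraries and 8352, 7779.7 and 9023 in GFPlow libraries (log2 fold change -3.49 ± 0.41, adjusted p = 2e-06), and SLC7A7, a light chain of a cationic and neutral amino acid exchanger, lay between 309 and 825 (median 561) in bihormonal libraries and at 6718, 7541 and 6725 in GFPlow libraries (log2 fold change -3.61 ± 0.33, adjusted p = 9.4e-08). *slc3a2a*, the heavy chain that SLC7 light chains need, had 885 to 1704 normalized counts (median 1336) in bihormonal and 5819, 10785 and 5704 in GFPlow libraries (log2 fold change -2.50 ± 0.24, adjusted p = 1.5e-07). The light chain gene *slc7a8a* was higher, 658 to 1584 (median 1182) against 78.5, 48.5 and 239.6 (log2 fold change 3.28 ± 0.45, adjusted p = 1.3e-05). AMD1, an enzyme of polyamine synthesis, and MIDN, midnolin, were lower, at -2.38 ± 0.24 (adjusted p = 3.6e-07) and -2.33 ± 0.30 (adjusted p = 6.1e-06).

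Ribosomal protein and oxidative phosphorylation genes were called almost only in the higher direction, but these counts moved with single libraries and with the scaling. Of 82 ribosomal protein genes 31 were called higher and 0 lower, with a median of 0.94 that was 0.06 when scaled by totals alone, where 0 were called. RPL19 ranged from 10153 to 33182 (median 18679.9) in bihormonal libraries and was 7733, 7602 and 7832 in GFPlow libraries (log2 fold change 1.41 ± 0.32, adjusted p = 0.0027), highest in bihormonal replicates 4 and 5, while bihormonal replicate 6 lay nearest to GFPlow. RPL29 was higher by 1.18 ± 0.29 (adjusted p = 0.0054). The ribosomal count fell from 31 to 15 without bihormonal replicate 4 and to 8 without GFPlow replicate 2, and was 0 in the set-blocked fit. Of 121 oxidative phosphorylation genes 29 were called higher and 2 lower, with a median of 0.76 that was -0.10 when scaled by totals alone. NDUFA4, a subunit of the respiratory chain, was 1961 to 2853 (median 2332) in bihormonal libraries and 1006, 667 and 896 in GFPlow libraries (log2 fold change 1.47 ± 0.25, adjusted p = 0.00017), and the related NDUFA4L2 was higher by 2.50 ± 0.37 (adjusted p = 2.8e-05). *cox8b*, a cytochrome oxidase subunit gene, was 1 of the 2 lower members, 4.64 to 68.5 (median 27.4) against 454, 523 and 475 (log2 fold change -3.98 ± 0.55, adjusted p = 1.4e-05). The higher count fell from 29 to 13 without bihormonal replicate 4, and to 11, 19 and 13 without GFPlow replicates 1, 2 and 3, was 1 in the set-blocked fit, and rose to 54 without bihormonal replicates 1 to 3. NDUFA4L2 kept its call when library set was a block, and RPL19, RPL29, NDUFA4 and *cox8b* did not. Of 58 proteasome genes 0 were called higher and 1 lower, and without bihormonal replicates 1 to 3 together 21 were called higher.

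Immediate early and heat shock genes, which respond to handling within minutes as well as to signals, were called lower for 12 and higher for 4 of 49, but for 1 in each direction in the set-blocked fit. EGR2 lay between 0 and 11.6 (median 4.62) in bihormonal libraries and at 202, 227 and 128 in GFPlow libraries (log2 fold change -5.31 ± 0.68, adjusted p = 5.5e-06), and EGR3 was lower than in GFPlow cells (log2 fold change -3.76 ± 0.60, adjusted p = 7.5e-05) and than in GFPhigh cells (log2 fold change -2.38 ± 0.61, adjusted p = 0.042). FOSB had 97.7 to 638 normalized counts (median 278) in bihormonal and 2502, 1625 and 2286 in GFPlow libraries (log2 fold change -2.77 ± 0.47, adjusted p = 0.00015), and ATF3, a stress-induced factor, ranged from 24.4 to 149 (median 104) in bihormonal libraries and was 1068, 852 and 368 in GFPlow libraries (log2 fold change -2.96 ± 0.60, adjusted p = 0.001). The far more abundant FOS was not called, at 12236 to 31345 (median 20196) against 23724, 27402 and 21452 (log2 fold change -0.20 ± 0.27, adjusted p = 0.68), though it was called lower with totals alone (-1.09, adjusted p = 0.00047). The part that dissociation and sorting had in these values was not tested. EGR3, FOSB and ATF3 lost their calls in the set-blocked fit, and the higher count was 2 instead of 4 without GFPlow replicate 1, GFPlow replicate 2 or bihormonal replicates 1 to 3.

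**Figure D5:**
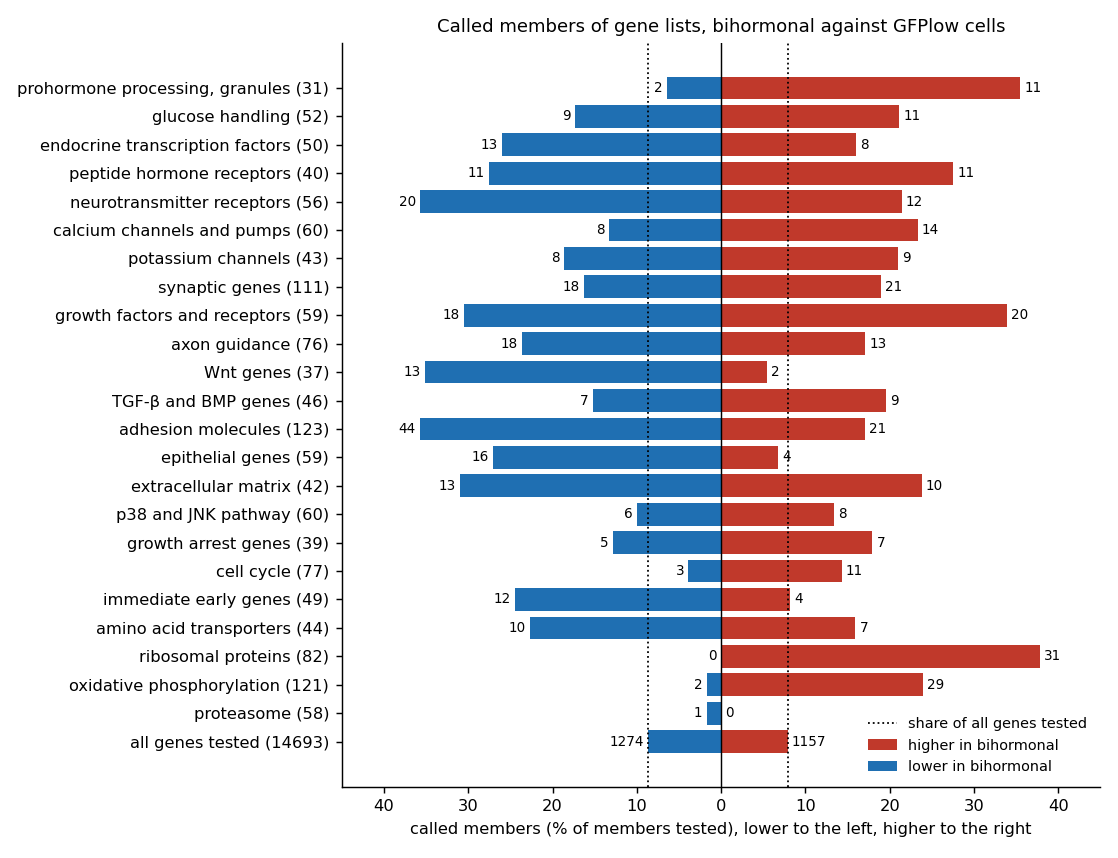
Percentage of tested members of each gene list shown that were called lower (blue, to the left) or higher (red, to the right) in bihormonal than in GFPlow cells. The number called is at the end of each bar and the number tested in parentheses. Dotted lines mark the shares of all genes tested, 8.67% lower and 7.87% higher, and the adhesion list shows 44 lower and 21 higher members. The hormone list, which includes *ins* and *sst1.1*, the genes of the sort, is not drawn.

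Markers of other cells that a sort of islet cells could hold were summed per library. The acinar sum was 1175 to 3783 in bihormonal and 626 to 5647 in GFPlow libraries, and of 14 tested members 9 were called lower and 1 higher. The higher one, the amylase gene *amy2al1*, was 909 to 2501 (median 1370.1) in bihormonal libraries and 129, 324 and 271 in GFPlow libraries (log2 fold change 2.67 ± 0.40, adjusted p = 3.2e-05). The lower ones were digestive proteases, and their GFPlow values differed between libraries, as for *prss59.2* at 901, 526 and 31.4. The count of lower acinar members was 0 without GFPlow replicate 1, 5 without GFPlow replicate 2, 4 without bihormonal replicate 1 and 1 without bihormonal replicates 1 to 3. The acinar factor PTF1A was at 0 in both groups.

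The duct sum was 2327 to 6140 and 7372 to 8019 (log2 difference -1.004), and its member ANXA4, an annexin, lay between 13.9 and 412 (median 36.8) in bihormonal libraries and at 4648, 4994 and 3893 in GFPlow libraries (log2 fold change -5.27 ± 0.76, adjusted p = 2.2e-05). Without ANXA4 the duct sum was 2313 to 5728 and 2378 to 4126, so the groups overlapped. Of its 9 tested members 2 were called higher and 2 lower. Besides ANXA4 these were TM4SF4, at 511 to 1124 and 166 to 311, SLC4A4, at 30.7 to 197 and 11.6 to 21.4, and CDH17, at most 38.4 in bihormonal and at 89.8 to 152 in GFPlow libraries. The mesenchymal sum was 254 to 526 and 623 to 788 (-0.87), and its member MMP2, a matrix protease, was at most 9.18 against 119.6, 477 and 275 (log2 fold change -6.39 ± 0.92, adjusted p = 2.3e-05), a call that the set-blocked fit did not make. MMP2 and a TAGLN gene that the study names *tagln2*, at most 30.05 against 121 to 285, were the 2 called lower. Without these 2 the mesenchymal sum was 249 to 522 and 190.0 to 227, higher in bihormonal cells, and *twist1b*, at 44.0 to 155 and 31.0 to 44.7, was called higher. Another gene with the symbol TAGLN, at 2.31 to 53.8 and 3.62 to 12.8, was too low to be tested. The 5 tested mesenchymal members had a median log2 fold change of 0.70. The sum of glial and neuronal markers was 2742 to 7803 and 1322 to 2233 (1.31, and 0.48 with totals alone). Most of it was *plp1b*, a myelin proteolipid gene, at 1841 to 7277 and 767 to 1630.0, and without it the sum was 525 to 901 and 556 to 631. White blood cell markers summed to 263 to 1394 and 110 to 925 (0.69, but -0.14 when scaled by totals alone). Of the 40 markers, 16 were at 0 in all bihormonal and 24 in all GFPlow libraries. Of 5 tested members 1 was called, *laptm5*, at 0.835 to 35.5 in bihormonal libraries and 0 in GFPlow libraries (log2 fold change 7.31 ± 1.96, adjusted p = 0.011). That call was lost with totals alone and without bihormonal replicate 4 or 5. Red blood cell markers summed to 293 to 559 and 554 to 687, with the transcription factor gene *gata1a* at 0 in both groups. Almost all of this sum was UROD, *tspo* and EPB41, the 3 tested members, of which 0 were called. The haemoglobin genes of the list were at most 4.28 in any of the 9 libraries, so the sum is not a measure of haemoglobin RNA. Endothelial markers summed to 11.5 to 60.2 and 44.2 to 55.6, and 0 of them were abundant enough to be tested. The largest GFPlow member was a CLDN5 gene, at 25.4, 43.6 and 27.1, against 0 to 11.6 in bihormonal libraries. ESAM was at most 2.31 against 1.94 to 9.66, and the receptor gene KDR at 0 against 0 to 2.42. In the other direction, *plvapb* was 0 to 21.8 against 2.91 to 4.83 and *tek* 2.32 to 11.9 against 0 to 2.42. The endothelial sum without the CLDN5 gene was not tested. The α-cell sum was 5357 to 92225 and 18957 to 36951, highest in bihormonal replicate 6. Over the 9 lists, the duct, mesenchymal, glial and *ghrl* sums reached 0.0238, the smallest p that the 84 splits allow (exact permutation test, two-sided), which is 0.0536 after adjustment. With totals alone the adjusted p was 0.0429 for the duct, endothelial, red blood cell, mesenchymal and *ghrl* sums, again at the smallest p. The part of these cells in the differences above was not tested.

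Bihormonal replicate 6 stood nearest to GFPlow cells also gene by gene. For 210 genes called lower with a fitted log2 fold change under -5 and a GFPlow mean of at least 100, it held the highest of the 6 bihormonal values in 148. Its median level over these genes was 2.79% of the GFPlow mean, against 0% to 0.800% in the other 5 bihormonal libraries. The level was 2.26% for *sst2*, 2.46% for *cdx1b*, 2.55% for *tbx2b*, 2.59% for MAP3K15 and 1.83% for *kctd12.2*. What gave this library its GFPlow-type counts was not tested. Without it 1175 genes were called higher and 1303 lower.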

How the data were processed

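RNA-seq counts of pools of sorted islet cells were analysed for 6 bihormonal and 3 GFPlow libraries, with 3 GFPhigh and 7 β-cell libraries in the same model. The authors deposited raw counts per Ensembl gene, made by aligning single-end SMART-Seq2 reads to GRCz11 (Ensembl release 92) with STAR and counting with featureCounts, and the versions and the strand setting were not given in the sources used here. Overlapping genes and near-identical duplicated copies may share or lose reads. Of 31901 gene identifiers 29178 had a symbol in the name table supplied with the data, and symbols in capitals are human symbols that it gives to zebrafish genes.

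Counts were scaled by composition (TMM) and fitted with the quasi-likelihood model of edgeR 4.0.16 (R 4.3.3), 1 mean per group, with the spread shared by all 19 libraries (biological coefficient of variation 37.3%). The 14693 genes whose normalized count averaged 10 or more over the 19 libraries were tested. A standard error is the log2 fold change divided by the square root of its F statistic. On simulated counts for this comparison, 17.9% of 67 genes changed 2-fold were recovered among 14693 genes. Recovery was 88.1% of 67 genes changed 4-fold and 100% of 66 changed 8-fold, and 7 unchanged genes were called. A call also needs a fitted fold above 2, so a 2-fold change lies at the threshold. Recovery with a spread that differs from gene to gene was not tested. Shares and marker sums were compared by exact permutation tests (scipy 1.17.1). The labels do not say whether libraries of a group came from separate experiments, so p-values measure the spread between these pools. Library sets were read from neighbouring numbers in the library names, whose meaning the labels do not give. Alternatives were DESeq2 1.42.0, limma 3.58.1 (voom), glmTreat, other scalings and filters, the 9 libraries alone, a robust spread, thinned counts, blocks for replicate number or library set, and libraries left out.

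Genes were named by rule: those that the study names, up to 15 non-overlapping called genes per direction by fold (higher group averaging 100 or more), up to 10 by level, up to 6 called members per direction and 3 not called members of each list, and the 3 highest of each list of other-cell markers. Some of these genes are not reported here. INSM1, MAPK14, *prss59.2*, PTF1A, *gata1a*, KDR, CLDN5, *plvapb*, *tek*, ESAM, *laptm5*, TM4SF4, SLC4A4, CDH17, TAGLN, *twist1b*, *plp1b* and ELAVL3 were chosen after their values were seen. Lists were matched by symbol and corrected after the matches were read, and members and lists were chosen with earlier results of these data known.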

Additional observations from a re-analysis of the deposited data

Results flagged for a closer look

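Each of 188 values was searched for a bihormonal library that stood apart from the other 5, by the gap to the nearest library over the whole range (Dixon's test at the 95% level). Chance gives about 1 in 20, and 12 values were found, of which 4 were in replicate 6. For *rxfp3.3b*, *efnb3a* and ADRB1, whose 1 to 3 counts over the group all lay in 1 library, the other libraries were at 0 and the ratio is 1 by construction. Replicate 6 was the high one for *insm1b* (119, others 15.6 to 31.2), *tshz3a* (9.18, others 0 to 0.917), *rxfp3.3b* (2.50, others 0) and *efnb3a* (1.67, others 0), all genes that were much higher in GFPlow cells. Replicate 4 was low for ABCC8 (2005, others 3101 to 4014) and *kcnk3b* (49.96, others 107 to 167) and high for *hmgcra* (974, others 394 to 542). Replicate 5 was high for SOSTDC1 (575, others 45.9 to 114) and low for AMD1 (1161, others 2448 to 2939). Replicate 2 was low for *slc37a4a* (255, others 574 to 876) and at 0 for USH1C (others 8.08 to 23.4). Replicate 1 held the single count of ADRB1 (1.15, others 0). Of these genes, ABCC8 was not called, and the call of each of the others was kept when the library in question was left out. Dixon's test was not run on the 3 GFPlow libraries.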

How the results depend on the processing

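The numbers of genes called, 1157 higher and 1274 lower, were within 1.5 times of these values under every alternative but 3. The test against the 2-fold threshold (glmTreat) gave 499 and 774, scaling by totals alone 476 and 3803, and the library set block 307 and 369. Leaving out single libraries gave 828 to 1179 higher and 973 to 1303 lower genes. DESeq2 gave 1210 and 1393, voom 1166 and 1541, and no filter 1213 and 1778. The replicate block gave 956 and 1109, of which 907 and 1056 were also called without it. Same-numbered bihormonal and GFPlow libraries did not deviate together (correlations of -0.018, -0.080 and 0.0041 for numbers 1 to 3), so the numbers were not taken as pairs.

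Of 177 genes with alternatives, the library set block kept 116 on their side of the threshold and in their direction, totals alone 156, voom 171 and the replicate block 173. The genes that reversed were not called in the comparison of the report. *gcga* (0.19) was -0.83 with voom, -0.45 with totals alone, -0.56 with the replicate block and -0.48 to 0.44 without single libraries. *gcgb* (-0.07) was 1.36 with the library set block, 0.73 without bihormonal replicates 1 to 3 and -0.94 to 0.15 without single libraries. MNX1 (-0.41) was 0.87 with the library set block, 0.045 without bihormonal replicates 1 to 3 and -1.17 to 0.94 without single libraries. *cdh10a* was -3.17 with the library set block (adjusted p = 0.15, not called) and -1.84 without bihormonal replicates 1 to 3 (adjusted p = 0.0266, called lower). *hhex* was 0.038 with the replicate block. Totals alone gave PAX6 -0.50, *neurod1* -0.41, MAPK14 -0.51 and ABCC8 -0.57, and the sum of white blood cell markers -0.14. In alternatives chosen after seeing the data, the duct sum (-1.004) was 0.26 without ANXA4 and the mesenchymal sum (-0.87) was 0.80 without MMP2 and the TAGLN gene called lower. ABCC8 was -0.02 without bihormonal replicates 1 to 3. The cause of these shifts was not tested, except that totals alone lowered all genes together. Limits: only 3 GFPlow pools were measured, and group and ablation cannot be told apart. Changes of 2-fold lie at the threshold of a call and were mostly not recovered on simulated counts.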

Other observations

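Further gene lists held called members, given with their shares beside the 7.87% higher and 8.67% lower of all genes. Cytoskeletal genes were higher for 6 (11.3%) and lower for 10 (18.9%) of 53. The microtubule-associated gene *map1ab* had 334 to 706 normalized counts (median 534) in bihormonal and 3188, 3678 and 3612 in GFPlow libraries (log2 fold change -2.74 ± 0.26, adjusted p = 1.6e-07). *marcksl1b*, whose product binds actin at the membrane, ranged from 158 to 543 (median 288) in bihormonal libraries and was 5461, 4954 and 4424 in GFPlow libraries (log2 fold change -4.02 ± 0.54, adjusted p = 9.8e-06), a call that the set-blocked fit did not make. The thymosin gene *tmsb1*, an actin monomer binder, was 10188 to 32963 (median 13296) in bihormonal libraries and 2149.7, 2160.2 and 3914 in GFPlow libraries (log2 fold change 2.70 ± 0.42, adjusted p = 5.1e-05). Genes of interferon and other immune responses were higher for 8 (10.1%) and lower for 13 (16.5%) of 79. The complement gene *c4b* lay between 0 and 7.51 (median 3.298) in bihormonal libraries and at 496, 388 and 639 in GFPlow libraries (log2 fold change -7.07 ± 0.56, adjusted p = 1.9e-08), while the chemokine CXCL14 had 533 to 1526 normalized counts (median 859) in bihormonal and 152, 154 and 149.7 in GFPlow libraries (log2 fold change 2.59 ± 0.43, adjusted p = 0.00011). The set-blocked fit called neither of these 2 genes. *b2m*, the light chain of major histocompatibility class I, ranged from 9231 to 11696 (median 11127) in bihormonal libraries and was 5649.6, 4916 and 5372 in GFPlow libraries (log2 fold change 1.03 ± 0.19, adjusted p = 0.00045). Its fold lay near the threshold, and the call was lost without GFPlow replicate 2, with totals alone and in the set-blocked fit. It was also lost with DESeq2 (0.975), voom (0.990), DESeq2 size factors (0.976), the 9 libraries alone (0.998) and glmTreat. The count of higher immune genes was 5 and 3 without GFPlow replicates 1 and 2 and 4 without bihormonal replicate 4, and that of lower ones 8 without GFPlow replicate 3.

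Lysosomal genes were called higher for 4 of 68 (5.88%, below the 7.87% of all genes) and lower for 0. The higher count was 1, 2 and 1 without GFPlow replicates 1, 2 and 3. ATP6AP2, an accessory subunit of the proton pump, was 6416 to 10659 (median 7444) in bihormonal libraries and 3059, 4190.4 and 3219 in GFPlow libraries (log2 fold change 1.18 ± 0.21, adjusted p = 0.00022), and it was not called with totals alone. Genes of the unfolded protein response were called higher for 3 and lower for 3 of 52 (5.77% each), and lipid genes for 4 and 4 of 47 (8.51% each), near or below the 7.87% and 8.67% of all genes.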
